A study of Homo sapiens with 6 samples.

Results

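The 30 genes described here encode the route from glucose uptake to lactate export or mitochondrial pyruvate oxidation. They were taken by gene symbol from the deposited counts of PANC-1, an established human line of pancreatic epithelioid carcinoma, and each symbol had 1 row among 60835 distinct symbols. SMAD4 had been knocked out in the cells of both groups, and per the sample titles it was put back by transfection either in its wild-type form (WT, 3 libraries) or with the R272K substitution (R272K, 3 libraries). RNA was collected on day 3. The series' title concerns arginine methylation of SMAD4 by PRMT1. The sources used here do not give the construct's promoter, the number of knockout clones or any treatment of the cells, and a library of knockout cells without SMAD4 was not analysed here. Whether replicates came from separate cultures is not stated in the labels, and each p-value rests on the spread among these libraries, possibly technical in part.

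Glycolysis splits glucose into pyruvate in the cytosol, and its flux is set largely at hexokinase, phosphofructokinase and pyruvate kinase. Phosphofructokinase is switched on by fructose-2,6-bisphosphate, which the bifunctional PFKFB enzymes make and break down. Pyruvate is then reduced to lactate by lactate dehydrogenase or enters mitochondria for the pyruvate dehydrogenase complex, which the PDK kinases switch off by phosphorylation. Pancreatic cancer cells are known for high glucose use and lactate release, and several of these genes are classical targets of hypoxia-inducible factor.

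Cells with R272K SMAD4 had higher levels of 3 of the 30 genes: PFKFB4 (1.57-fold), the liver-type phosphofructokinase gene PFKL (1.27-fold) and the pyruvate dehydrogenase kinase gene PDK1 (1.33-fold). The remaining 27 were not called and 0 fell. Calls were made where the adjusted p was under 0.05 in edgeR's quasi-likelihood test over all 15911 genes that passed the expression filter, which all 30 did. In that test 0.685% of all genes were called higher and 0.528% lower. ENO1, PKM and GAPDH, 3 of the most abundant genes of the pathway, overlapped between the groups and were not called. The 3 higher genes encode regulators or a minor isoenzyme and together hold a small part of the pathway's transcript.

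The stretches before the RefSeq transcription starts of the 3 higher genes are shown because these genes moved in the same direction. Each line is the 250 bases before a start, 5′ to 3′ on the gene's strand, from RefSeq on GRCh38.p14. Capitals mark ACGTG or GCGTG on either strand, the core letters of a hypoxia response element. PDK1 has a pair of annotated starts in that table, and both are given.
PFKFB4, chr3:48556804-48557053, minus strand: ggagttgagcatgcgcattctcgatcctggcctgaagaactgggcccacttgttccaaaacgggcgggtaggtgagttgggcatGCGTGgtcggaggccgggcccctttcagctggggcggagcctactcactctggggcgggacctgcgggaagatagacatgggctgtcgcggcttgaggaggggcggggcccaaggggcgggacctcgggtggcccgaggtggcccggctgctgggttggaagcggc
PFKL, chr21:44299803-44300052, plus strand: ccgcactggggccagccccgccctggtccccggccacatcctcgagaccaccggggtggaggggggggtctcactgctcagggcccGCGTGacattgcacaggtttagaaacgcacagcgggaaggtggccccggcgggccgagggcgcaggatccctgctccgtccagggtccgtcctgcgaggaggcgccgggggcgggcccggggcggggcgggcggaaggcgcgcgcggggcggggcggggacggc
PDK1, upstream start, chr2:172555123-172555372, plus strand: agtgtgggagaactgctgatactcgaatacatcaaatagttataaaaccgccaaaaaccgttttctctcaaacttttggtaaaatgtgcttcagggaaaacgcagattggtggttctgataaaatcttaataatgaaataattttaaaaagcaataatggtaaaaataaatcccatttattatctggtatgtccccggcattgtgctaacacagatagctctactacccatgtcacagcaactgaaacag
PDK1, downstream start, chr2:172555840-172556089, plus strand: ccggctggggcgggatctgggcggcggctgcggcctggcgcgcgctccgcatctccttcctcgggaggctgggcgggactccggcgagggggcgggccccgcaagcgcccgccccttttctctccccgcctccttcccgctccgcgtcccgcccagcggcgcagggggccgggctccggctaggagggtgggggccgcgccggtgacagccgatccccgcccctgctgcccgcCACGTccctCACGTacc

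PFKFB4 and PFKL each held 1 GCGTG match and 0 ACGTG matches, the downstream PDK1 start held 2 ACGTG matches, and the upstream PDK1 start held neither. A match to ACGTG or GCGTG stood in 30 of 55 promoters of the members (54.5%; 27 of 30 members had an entry) and in 43.2% of 35116 RefSeq promoters of the same length. Taken alone, ACGTG stood in 36.4% of member promoters and 18.5% of all, and GCGTG in 32.7% and 32.2%. The E-box CACGTG, which contains ACGTG, stood in 14.5% and 6.34%. Member promoters were richer in G and C (median 68.4%) than all promoters (median 58%), several members contribute overlapping starts, and the part of base composition in these shares was not tested. CAGAC, the SMAD-binding core, stood in 30.9% of member promoters against 38% of all, and the palindrome GTCTAGAC in 0 of 55 against 0.182%. None of the 4 stretches above held CAGAC or GTCTAGAC. A match is a description of letters and says nothing about binding.

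Total counts per library lay between 14776148 and 17706201. SMAD4 itself stood at 83.4, 93.6 and 89.0 CPM (counts scaled to library size with TMM factors) in WT replicates 1 to 3 and at 40.6, 45.6 and 43.6 CPM in R272K replicates 1 to 3. On the log2 scale this was a change of -1.03 with an SE of 0.0749 (adjusted p = 6.28e-06). The amount of SMAD4 transcript and the substitution therefore cannot be told apart in any difference below. These gene-level counts also do not separate transcript of the construct from any left of the knocked-out gene. The epithelial markers KRT8, KRT18 and KRT19 were abundant, with KRT7, EPCAM and CDH1 at a few CPM, and the 6 together summed to 3029 to 3772 CPM in WT and 3804 to 4113 CPM in R272K libraries. Of 5 acinar and 3 endothelial markers 0 passed the filter. The 5 leukocyte markers summed to 3.74 CPM or less and the 5 fibroblast markers to 16.1 CPM or less per library, and CDH1 was the 1 marker called, higher with R272K (adjusted p = 0.00174). On the first principal component WT replicates 1 to 3 stood at -31.3, -9.6 and -0.1, and R272K replicates 1 to 3 at 15.6, 11.3 and 14.1. The groups did not overlap on it, and the library farthest from the others was WT replicate 1. Longer genes had lower relative levels in that library, with a Spearman's rho of -0.41 across 15911 genes and -0.28 across the 30 members, which share the library and are not replicates.

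**Figure D1:**
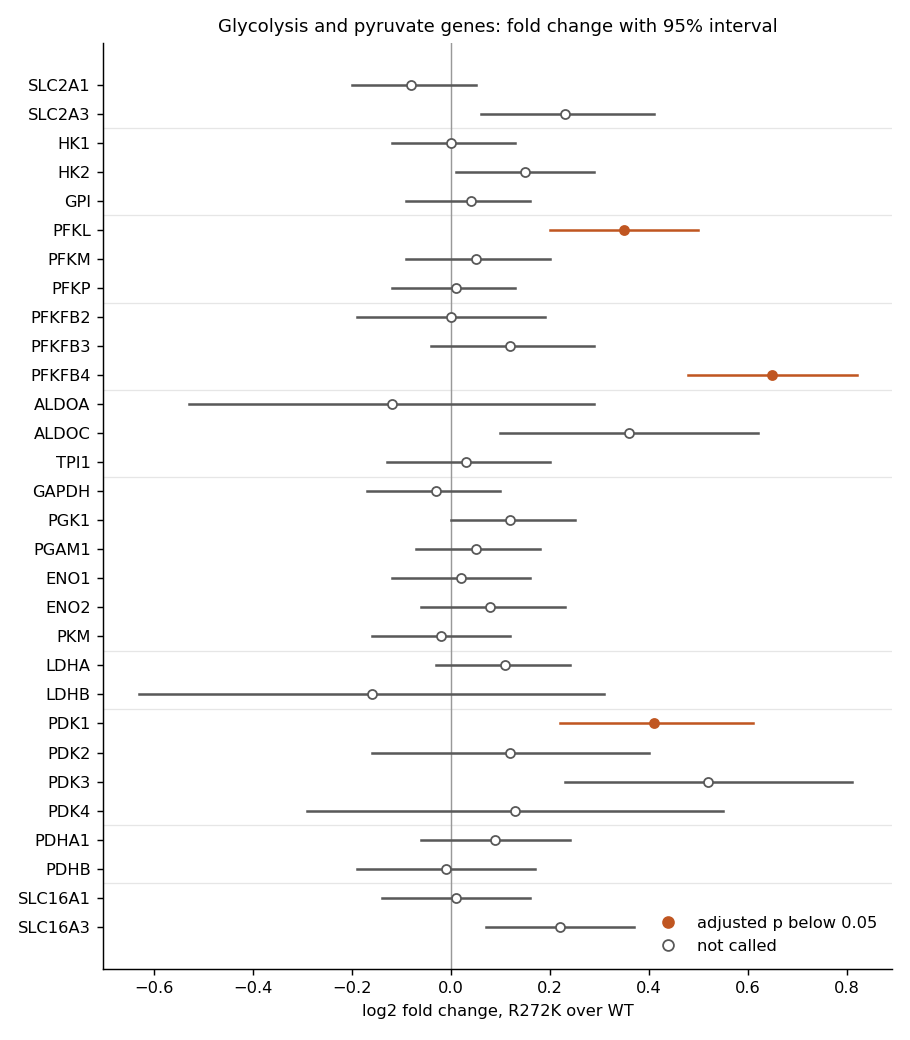
Fold change of the 30 genes, grouped by step from glucose uptake at the top to lactate transport at the bottom. The x axis is the log2 fold change of R272K over WT and lines are 95% intervals from edgeR's quasi-likelihood test (3 libraries per group). PFKL, PFKFB4 and PDK1 are the filled points, and LDHB, PDK4 and ALDOA have the widest intervals.

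Of the 30 genes, 23 had a positive and 7 a negative fold change, with a median log2 fold change of 0.07, where 49.7% of all genes tested were positive and their median was -0.001. At an unadjusted p below 0.05 there were 8 members, all with a positive fold change, where 7.18% of all genes had such a p with a positive fold change. The 3 R272K libraries lay above the 3 WT libraries without overlap for 9 members (PFKFB4, PFKL, PDK1, PDK3, SLC16A3, ALDOC, SLC2A3, HK2 and PGK1), where 10.9% of all genes did so. They lay below for 0 members, against 10.4% of all genes. The 30 genes together held 1.43, 1.4 and 1.41% of all TPM, a length-scaled abundance, in WT replicates 1 to 3 and 1.45, 1.46 and 1.5% in R272K replicates 1 to 3. The groups did not overlap in that share, and the step between them was small beside the total.

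Glucose enters through the GLUT transporters. SLC2A1 (GLUT1), the main carrier in most cancer cells, stood at 237, 234 and 223 CPM in the WT libraries and 212, 221 and 226 CPM in the R272K libraries. The groups overlapped, and the log2 fold change was -0.08 (95% interval -0.2 to 0.05, adjusted p = 0.605). SLC2A3 (GLUT3), a carrier with high affinity for glucose, stood at 29, 28.9 and 26.3 CPM in WT and 31.8, 34.7 and 32.5 CPM in R272K libraries. Each R272K library was above each WT library, but the gene was not called (log2 fold change 0.23, interval 0.06 to 0.41, adjusted p = 0.206). Per length, SLC2A3 was the minor form: it made up 8.5 ± 0.193% of the summed TPM of the pair in WT and 10.3 ± 0.417% in R272K libraries (SD, n = 3 each).

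Hexokinase traps glucose in the cell as glucose-6-phosphate. HK1, the housekeeping form, stood at 226, 219 and 226 CPM in WT and 220, 225 and 227 CPM in R272K libraries, with a log2 fold change of 0.00 (interval -0.12 to 0.13). HK2, the inducible form, stood at 177, 198 and 185 CPM in WT and 204, 213 and 204 CPM in R272K libraries. The R272K libraries were all higher, by 0.15 on the log2 scale (interval 0.01 to 0.29, adjusted p = 0.297), which was not called. GPI turns glucose-6-phosphate into fructose-6-phosphate. It stood at 492, 475 and 460 CPM in WT and 479, 478 and 507 CPM in R272K libraries, and the groups overlapped (adjusted p = 0.823).

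Phosphofructokinase commits the sugar to glycolysis, and of its 3 isoenzyme genes PFKL was the 1 called. PFKL stood at 58.2, 60.0 and 60.9 CPM in the WT libraries and 72.5, 75.6 and 79.9 CPM in the R272K libraries. There was no overlap, and PFKL rose by a log2 fold change of 0.35 (SE 0.0679, interval 0.2 to 0.5, adjusted p = 0.0244). The gene (ENSG00000141959) lies on chromosome 21 from 44300051 to 44327376 on the plus strand of GRCh38. PFKP, the platelet-type form, was the abundant one, at 491, 478 and 465 CPM in WT and 473, 478 and 490 CPM in R272K libraries, with an interval of -0.12 to 0.13. The muscle-type gene PFKM lay between 80.8 and 91.6 CPM in all libraries and was not called (0.05, adjusted p = 0.761). In TPM, PFKP made up 81.5 ± 0.419% of the 3 forms in WT and 80 ± 0.6% in R272K libraries, and PFKL went from 5.54 ± 0.256 to 6.88 ± 0.206%.

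The largest fold change of the 30 genes was that of PFKFB4, whose enzyme makes fructose-2,6-bisphosphate, the activator of phosphofructokinase, and can also break it down. PFKFB4 (ENSG00000114268, chromosome 3, 48517684 to 48562015, minus strand, GRCh38) stood at 32.9, 34.2 and 36 CPM in the WT libraries and 50.6, 53.4 and 57.7 CPM in the R272K libraries. Every R272K library was well above every WT library. PFKFB4 rose by a log2 fold change of 0.65 (SE 0.0778, interval 0.48 to 0.82, adjusted p = 0.000664), and 25 of the 109 genes called higher, PFKFB4 among them, had a fold change of this size or more. It was called with each library left out in turn (0.6 to 0.69).

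The other genes of that family were not called. PFKFB3 stood at 50.6, 58.5 and 57.1 CPM in WT and 57.7, 60.4 and 62.5 CPM in R272K libraries (0.12, interval -0.04 to 0.29, adjusted p = 0.502). PFKFB2 stood at 67.9, 85.7 and 86.0 CPM in WT and 83.1, 78.8 and 77.1 CPM in R272K libraries, with WT replicate 1 lowest of the 6 (0.00, interval -0.19 to 0.19). Per length, the 3 genes were of like abundance in WT cells, at 33.8, 36.7 and 29.5% of their summed TPM for PFKFB2, PFKFB3 and PFKFB4. In R272K cells they stood at 28.2, 33.3 and 38.5%, so by TPM PFKFB4 went from the least to the most abundant of the 3. That order rests on the lengths behind the deposited TPM, 3.57, 2.28 and 1.77 times the median gene. GENCODE release 29 lists 6114 exonic bases for PFKFB3 and 6107 for PFKFB4. In mean CPM PFKFB4 was the lowest of the 3 in R272K cells too, at 53.9 against 79.6 for PFKFB2 and 60.2 for PFKFB3. Its share per library was 31.2, 28.1 and 29.4% in WT and 37.1, 38.4 and 40% in R272K libraries, a difference of 8.99 percentage points (two-sided exact permutation p = 0.1, the smallest that 3 against 3 allows, and 0.225 adjusted over the 9 families compared).

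**Figure D2:**
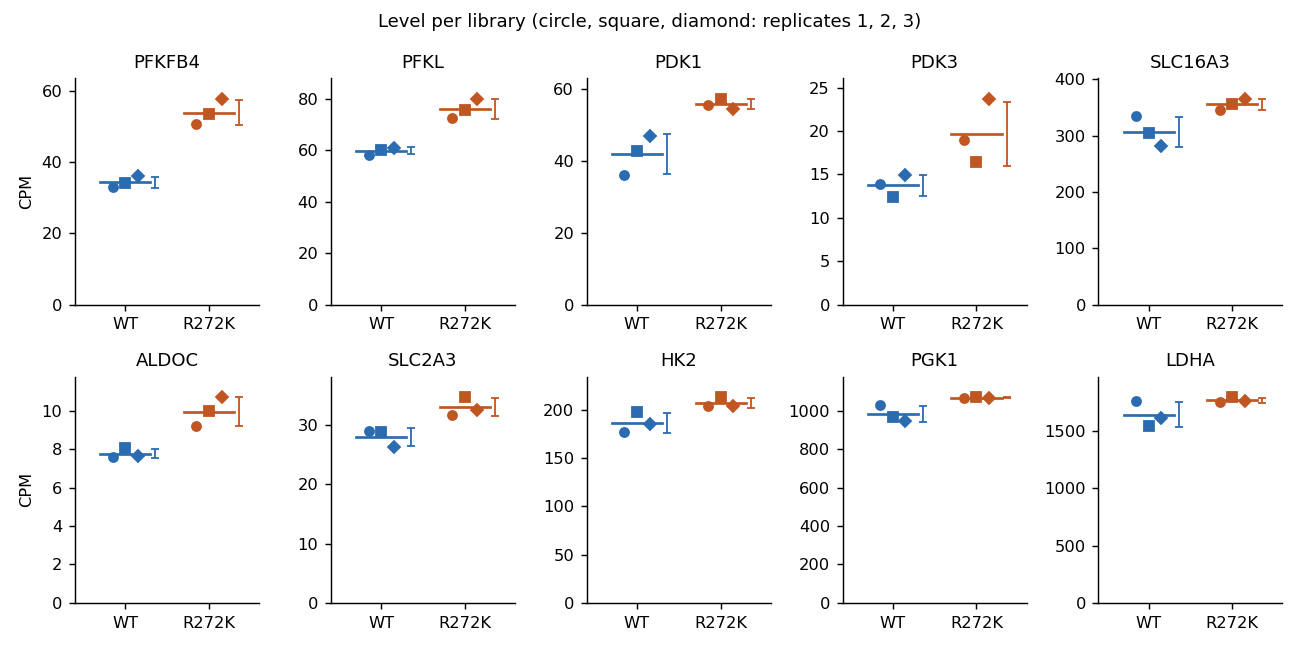
CPM per library of the 10 genes with the smallest p, in order of p, with an axis from 0. Points are libraries, horizontal lines are group means and the bars beside them are 1 SD (n = 3). PFKFB4 stands at 32.9 to 36 CPM with WT and 50.6 to 57.7 CPM with R272K SMAD4.

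The isoenzyme shares were compared in 9 families, and the plot of shares by library shows the 6 whose genes do not include ALDOA, LDHB or the enolases. The adjustment took 1 gene per family, chosen with earlier results known: SLC2A3, HK2, PFKL, PFKFB4, ALDOC, ENO2, LDHA, PDK1 and SLC16A3. Of these the exact p was at its minimum of 0.1 for SLC2A3, PFKL, PFKFB4 and PDK1, and it was 0.2 for HK2, ALDOC and ENO2, 0.3 for SLC16A3 and 0.5 for LDHA. The same p of 0.1 was found for shares that were lower with R272K, those of SLC2A1 (-1.83 points), PFKP (-1.53), PFKFB2 (-5.55) and PFKFB3 (-3.43), which follow in part from the higher share of the other gene since shares sum to the whole. No share had an adjusted p below 0.225, and with 3 libraries per group none could pass the threshold.

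**Figure D3:**
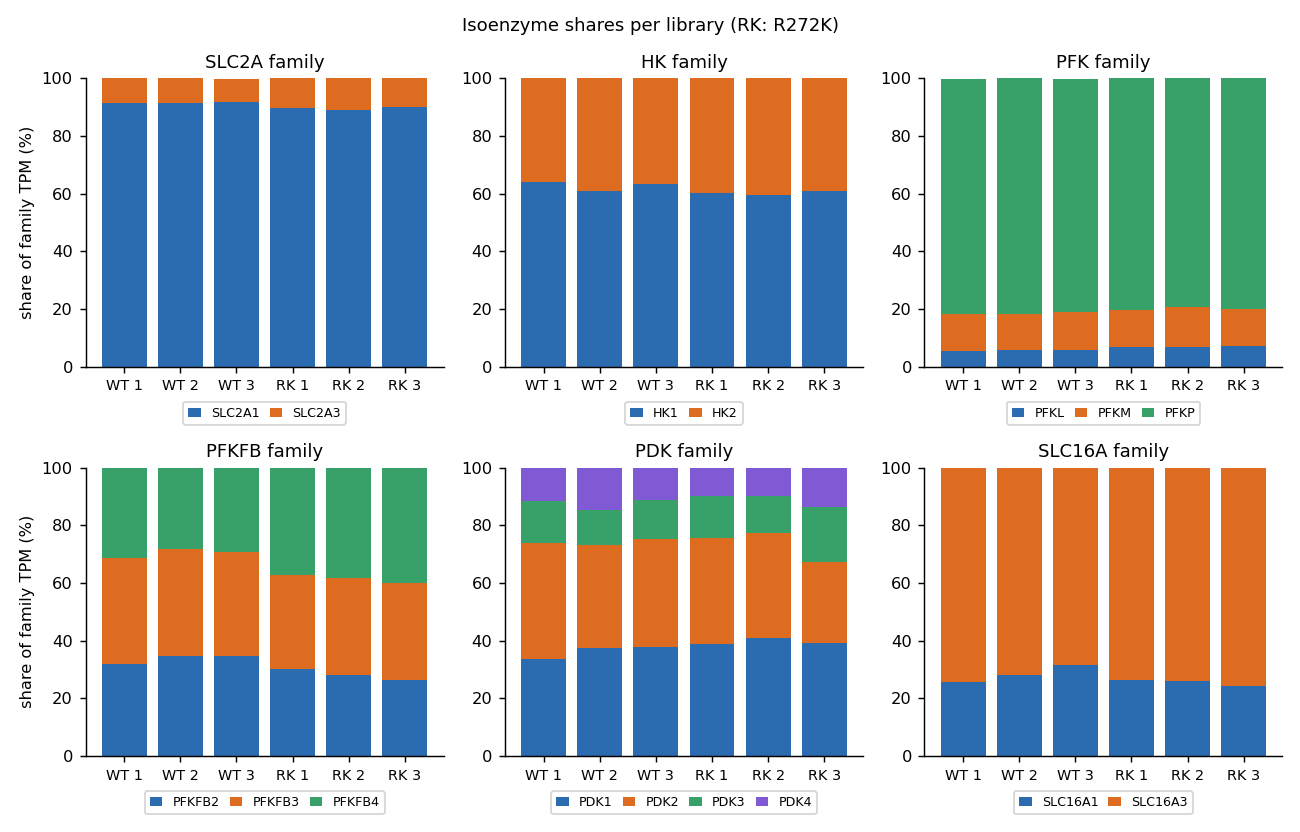
Share of each isoenzyme gene in the summed TPM of its family, per library (percent). In the PFKFB family the PFKFB4 part is 28.1 to 31.2% with WT and 37.1 to 40% with R272K SMAD4, and the PFKP part of the phosphofructokinase family is 81 to 81.8% with WT and 79.3 to 80.5% with R272K SMAD4.

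Aldolase splits fructose-1,6-bisphosphate into triose phosphates. ALDOA, the form of most tissues, was listed at 5.47, 6.76 and 8.39 CPM in WT and 5.64, 7.92 and 5.34 CPM in R272K libraries, levels far below those of the enzymes on either side of it. The brain-type gene ALDOC stood at 7.58, 8.04 and 7.67 CPM in WT and 9.19, 9.98 and 10.7 CPM in R272K libraries. The ALDOC groups did not overlap, yet the gene was not called (0.36, interval 0.1 to 0.62, adjusted p = 0.185). TPI1, the triose phosphate isomerase gene, stood at 497, 431 and 411 CPM in WT and 426, 477 and 466 CPM in R272K libraries, highest in WT replicate 1 (0.03, interval -0.13 to 0.2).

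The genes from GAPDH to PKM form the payoff phase, in which ATP is made. ENO1, the main enolase gene and the most abundant member per length (2895 TPM over the 6 libraries), stood at 2569, 2267 and 2192 CPM in WT and 2352, 2398 and 2382 CPM in R272K libraries. Its groups overlapped, because WT replicate 1 was the highest and the other WT libraries the lowest, and the log2 fold change was 0.02 (interval -0.12 to 0.16, adjusted p = 0.915). PKM, which encodes the pyruvate kinase forms M1 and M2 that these gene-level counts do not separate, stood at 2621, 2341 and 2291 CPM in WT and 2346, 2393 and 2421 CPM in R272K libraries (-0.02, interval -0.16 to 0.12). GAPDH, often used to normalise other assays, stood at 1235, 1138 and 1064 CPM in WT and 1134, 1114 and 1107 CPM in R272K libraries (-0.03, interval -0.17 to 0.1, adjusted p = 0.846). For these 3 genes the intervals leave room for a fold change between 0.886 and 1.12 at most.

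Of the other payoff genes, PGK1, the phosphoglycerate kinase gene, stood at 1029, 968 and 947 CPM in WT and at 1067, 1069 and 1066 CPM in R272K libraries. The R272K libraries were all higher, and the gene was not called (0.12, interval 0 to 0.25, adjusted p = 0.367). The mutase gene PGAM1 lay between 541 and 595 CPM and the neuronal enolase gene ENO2 between 107 and 125 CPM. Neither was called (adjusted p = 0.733 and 0.615). ENO1, PKM, LDHA and GAPDH together held 67.5 to 69.3% of the summed TPM of the 30 genes in every library.

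Lactate dehydrogenase regenerates NAD+ from NADH as it makes lactate. LDHA stood at 1761, 1546 and 1617 CPM in WT and 1748, 1793 and 1763 CPM in R272K libraries, and WT replicate 1 overlapped the R272K group. The log2 fold change was 0.11 (interval -0.03 to 0.24, adjusted p = 0.47). LDHB was listed at 3.08, 3.38 and 4.46 CPM in WT and 3.87, 3.33 and 2.54 CPM in R272K libraries (-0.16, interval -0.63 to 0.31). On these values LDHA made up 99.6 to 99.8% of the pair's TPM, a share that rests on the LDHB counts described next.

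ALDOA and LDHB share most of their coding sequence with another annotated gene, which sets a limit on both. In GENCODE release 29, 93.8% of the coding bases of ALDOA lie in exons of ENSG00000285043 on the same strand, and 93.5% of those of LDHB in exons of ENSG00000285854. The next largest such overlaps were 10.3% for GPI and 4.58% for PFKP, and the other 26 members had 0. The deposited counts listed ENSG00000285043 at 36 to 53 and ENSG00000285854 at 0 to 2 per library, so the reads of the pair are not found under those names either. HTSeq can leave out reads that fit 2 genes, but the sources used here do not give the setting, and its part in these low levels was not tested. The counts behind both genes were small (82 to 128 per library for ALDOA and 39 to 68 for LDHB). Whether these counts cover the whole of either gene was not tested.

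**Figure D4:**
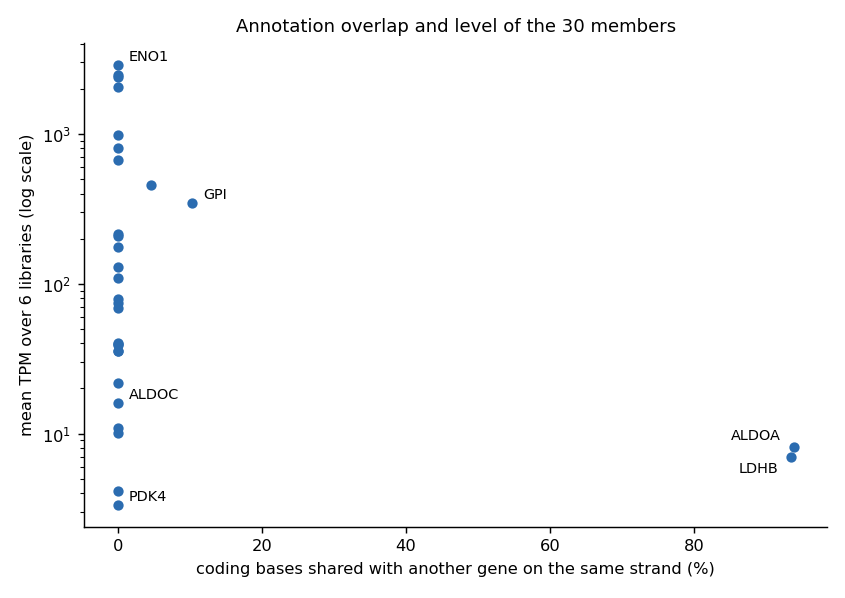
Each point is 1 of the 30 genes. The x axis is the percent of its coding bases that lie in exons of another gene on the same strand (GENCODE release 29), and the y axis, on a log scale, is its mean TPM over the 6 libraries. ALDOA and LDHB lie alone above 90%.

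Overlap on the opposite strand matters only if counting ignored strand, a setting that the sources used here do not give. By that measure GAPDH shared 21.5%, PDHB 21% and PDK1 14.3% of coding bases with antisense genes. Processed pseudogenes can also draw reads from the abundant enzymes. In the deposited counts, 65 pseudogenes named after GAPDH held 33 to 74 counts per library, 13 named after PGAM1 held 40 to 75, and 4 named after TPI1 held 91 to 120. Over all libraries the TPI1 pseudogenes made up 1.55% of their sum with TPI1. Reads lost to several equal matches cannot be seen in these counts, so the levels of these genes relative to others are uncertain.

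Pyruvate dehydrogenase kinases phosphorylate and switch off the enzyme that turns pyruvate into acetyl-CoA. PDK1 (ENSG00000152256, chromosome 2, 172555373 to 172608669, plus strand, GRCh38) stood at 35.9, 42.7 and 46.8 CPM in the WT libraries and 55.5, 57.1 and 54.3 CPM in the R272K libraries. The WT libraries were spread more widely than the R272K libraries, with no overlap, and PDK1 rose by a log2 fold change of 0.41 (SE 0.091, interval 0.22 to 0.61, adjusted p = 0.0452). PDK1 has the longest transcript model of the 30 genes, at 7.1 times the median length, and its lowest value was in WT replicate 1. PDK3, next in length at 6.42 times the median, stood 0.027 above the mean of WT replicates 2 and 3 in that library (log2 CPM). PDK1 was called in 10 of 17 alternative settings, among them the removal of each library's trend with gene length (log2 fold change 0.33, adjusted p = 0.00485). It was not called in 4 of 6 fits with a library left out, in both fits on TPM or with library size only (adjusted p of 0.0546 to 0.256 in these 7).

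PDK3 had a larger fold change than PDK1 but more spread between libraries. It stood at 13.9, 12.4 and 14.9 CPM in WT and 19.0, 16.4 and 23.7 CPM in R272K libraries, a log2 fold change of 0.52 (SE 0.132, interval 0.23 to 0.81, adjusted p = 0.0868). The groups did not overlap and the gene was not called. DESeq2, which called 4 members higher where it called 0.918% of all genes higher, called PDK3 as the fourth (adjusted p = 0.0297). PDK2 lay between 9.38 and 12.5 CPM and PDK4, a kinase gene induced by fasting in other tissues, between 3.19 and 4.89 CPM, and neither was called (adjusted p = 0.711 and 0.812). By TPM PDK1 and PDK2 were the main forms, at 36.3 and 37.9% of the family's TPM in WT and 39.6 and 33.7% in R272K libraries. The place of PDK2 above PDK3 rests on lengths of 1.7 and 6.42 times the median gene behind the TPM. GENCODE release 29 lists 5481 exonic bases for PDK2 and 4951 for PDK3. In mean CPM PDK3 stood above PDK2, at 13.7 against 10.4 in WT and 19.7 against 11.3 in R272K libraries. PDHA1 and PDHB encode the target enzyme's E1 subunits. PDHA1 stood at 78.4, 73.5 and 71.4 CPM in WT and 76.3, 79.1 and 82.3 CPM in R272K libraries, and PDHB lay between 50.3 and 60.8 CPM. Both groups overlapped for each gene and neither was called (adjusted p = 0.589 and 0.976).

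Lactate leaves the cell through monocarboxylate transporters. SLC16A3 (MCT4), the export form of glycolytic cells, stood at 334, 304 and 281 CPM in WT and 346, 356 and 365 CPM in R272K libraries. There was no overlap, but WT replicate 1 came close to the R272K libraries and the gene was not called (0.22, interval 0.07 to 0.37, adjusted p = 0.171). SLC16A1 (MCT1), which carries lactate both ways, lay between 104 and 118 CPM (0.01, interval -0.14 to 0.16). SLC16A3 made up 71.5 ± 3.05% of the pair's TPM in WT and 74.4 ± 1.13% in R272K libraries.

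The calls beside PFKFB4 changed with the libraries included. Each fit with a library left out also had fewer libraries than the main fit, and the part of that in lost calls was not tested. Without WT replicate 1, 7 members were called higher (PFKFB4, PFKL, PDK1, PDK3, PGK1, LDHA and SLC16A3), where 2.94% of all genes were called higher. In that fit PGK1 stood at 0.16 (adjusted p = 0.00286), LDHA at 0.16 (adjusted p = 0.00176), SLC16A3 at 0.28 (adjusted p = 1.74e-05) and PDK3 at 0.53 (adjusted p = 0.0171). Without WT replicate 2, or without R272K replicate 1, 2 or 3, PFKFB4 was the 1 member called, where 0.244, 0.159, 0.134 and 0.129% of all genes were called higher. PFKL then had an adjusted p of 0.101 to 0.198 and PDK1 of 0.143 to 0.232, at log2 fold changes of 0.31 to 0.38 and 0.39 to 0.43. Without WT replicate 3, PFKFB4, PFKL and PDK1 were called, against 0.741% of all genes. With other scalings 2 or 3 members were called (RLE 3, upper quartile 3, library size only 2), against 0.698, 0.742 and 0.672% of all genes called higher. The count was 4 with no filter (0.62%), 3 with a filter at 1 CPM (0.739%), 3 with limma-voom (0.71%), 4 with a replicate block (0.867%) and 3 with the length trend removed (2%). It was 1 with limma on log2(TPM + 1) (0.308%) or log2(TPM + 0.1) (0.295%), and PFKFB4 was that member.

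**Figure D5:**
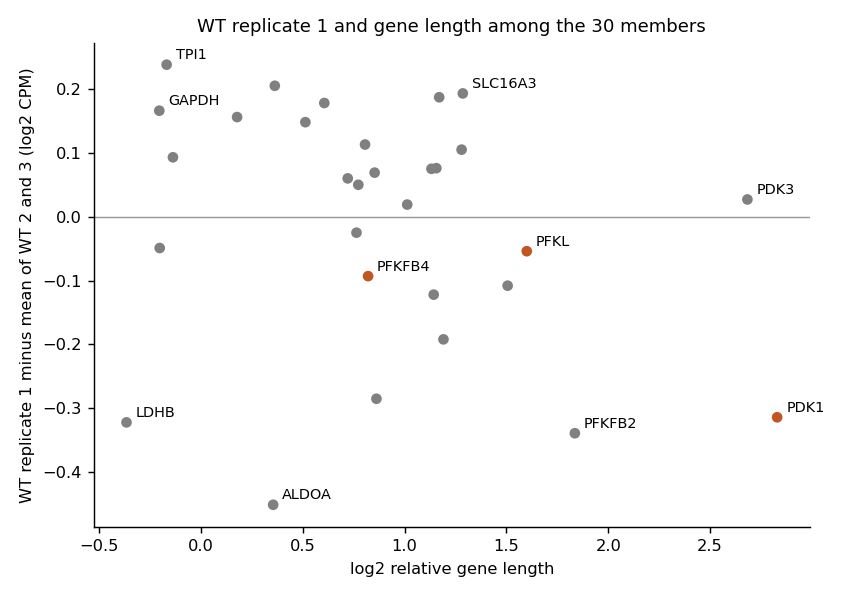
Each point is 1 of the 30 genes, with PFKFB4, PFKL and PDK1 in orange. The x axis is log2 of the gene's length relative to the median gene, and the y axis is its log2 CPM in WT replicate 1 minus the mean of WT replicates 2 and 3. Short abundant genes such as TPI1 lie above 0 and PDK1 lies at -0.31. Off that trend, PDK3, next in length to PDK1, lies at 0.027, the short LDHB at -0.322 and ALDOA, the lowest point, at -0.451.

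Related genes outside the 30 gave 2 calls among 92 tested, 1 higher and 1 lower. Of all genes tested, 0.685% were called higher and 0.528% lower. Among 15 tested accessory genes and rarer isoenzymes of glycolysis, 0 were called, also with DESeq2 and limma-voom, and 3 had an unadjusted p below 0.05, where 14.3% of all genes tested did in either direction. The smallest p values belonged to SLC16A8, a lactate carrier at 0.335 ± 0.0616 CPM in WT and 0.921 ± 0.0626 CPM in R272K libraries (adjusted p = 0.114), and EMB, an escort protein of lactate carriers (0.25, adjusted p = 0.18). Of 16 genes for other fates of pyruvate 0 were called, 1 had an unadjusted p below 0.05, and the transaminase gene GPT2 (0.27, adjusted p = 0.241) and the citrate lyase gene ACLY (0.12, adjusted p = 0.405) came first. The 11 pentose phosphate genes gave 0 calls and 1 unadjusted p below 0.05, with H6PD at 0.23 and PGD at 0.14 (adjusted p = 0.275 and 0.429). The 20 tricarboxylic acid cycle genes gave 0 calls and 2 unadjusted, with ACO1 at 0.15 and SDHB at -0.18 (adjusted p = 0.282 and 0.304). DESeq2 and limma-voom called 0 in these 3 lists as well.

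In the list for glycogen and hexosamine 1 of 15 rose, GYS1, which encodes the muscle-type glycogen synthase. GYS1 stood at 37.9, 41.6 and 41.2 CPM in WT and 51.5, 54.0 and 54.0 CPM in R272K libraries, without overlap (0.40, SE 0.0723, adjusted p = 0.0158). Without WT replicate 2 or any 1 R272K library its log2 fold change was 0.39 to 0.43 and it was not called (adjusted p of 0.0609 to 0.135). Of 15 regulators linked to glycolysis, 1 fell: TXNIP, an arrestin that removes glucose transporters from the cell surface and is itself induced by glucose. TXNIP stood at 51.5, 48.4 and 48.7 CPM in WT and 16.1, 16.6 and 17.6 CPM in R272K libraries, far below the WT range (-1.56, SE 0.0794, adjusted p = 1.92e-07), and was called with each library left out. Its relative ARRDC4, chosen after its values were seen, stood at 6.98 ± 1.08 and 4.38 ± 0.218 CPM and was not called (-0.67, adjusted p = 0.061). It was called in 5 of 17 alternative settings, with adjusted p of 0.0127 to 0.0466 in those. The hypoxia-inducible factor genes of that list, with MYC, were also chosen after their values were seen. HIF1A and MYC had log2 fold changes of -0.02 each (adjusted p = 0.903 and 0.907), and ARNT of 0.04 (adjusted p = 0.882). EPAS1, which encodes HIF-2 alpha, stood at 59.8, 66.7 and 63 CPM in WT and 55.9, 54.3 and 55.4 CPM in R272K libraries. Every R272K library was below every WT library, and the gene was not called (-0.19, interval -0.34 to -0.04, adjusted p = 0.224).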

How the data were processed

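Polyadenylated RNA of 6 libraries was sequenced. Per the submitters' processing notes, the reads went through HTSeq 0.10.0, HISAT2 2.1.0 and fastp 0.23.0, besides SAMtools, on GRCh38; the notes give no order. Strand, counting mode and annotation release were not found there. The values deposited by the authors are raw counts for each symbol and, as a second signal, TPM. Both list 453 symbols on several lines with the same value, so each symbol was used once, after which TPM summed to 1000000. Gene length was recovered from the ratio of count to TPM.

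Genes were filtered by edgeR's expression filter (minimum count 10, minimum total 15), scaled by TMM and tested with the robust quasi-likelihood test, two-sided, with the group as the only term and Benjamini-Hochberg adjustment over all 15911 genes. The SE is the log2 fold change divided by the square root of F, and intervals are 95%. Isoenzyme shares used TPM and an exact permutation test. The members, gene lists and tests were chosen with earlier results of these data known. Values per library are given for called members, the 10 with the smallest p and the most abundant of each role. In other lists called genes, otherwise the 2 with the smallest p, are named. The test was also run on counts simulated with the spread of these libraries and without a length trend. No statement here rests on that run. The alternatives were other scalings, filters and tools, a replicate block, removal of the length trend, TPM with limma, and each library left out. All replicate pairs differed by more than sampling noise, measured as chi-square over its degrees of freedom. The value was 11.3 and 15.6 for WT replicate 1 against WT replicates 2 and 3. It was 1.83 to 2.92 for the other pairs. Software was DESeq2 1.42.0, edgeR 4.0.16 and limma 3.58.1 in R 4.3.3, and matplotlib 3.10.9, pandas 2.3.3 and numpy 2.4.6 in Python 3.11.15.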

Additional observations from a re-analysis of the deposited data

How the results depend on the processing

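The count of 3 members called higher was 2 to 4 under each other scaling, filter or count-based tool. It was 1 with limma on log2(TPM + 1) or log2(TPM + 0.1), where PFKFB4 was the 1 called, and 1 to 7 with 1 library left out. Over all genes the count of 193 became 474 with no filter, 619 with the length trend removed, 104 and 101 with limma on TPM + 1 and TPM + 0.1, and 55 to 875 with 1 library left out. Calls in the other pathway lists went from 2 to 5 with the length trend removed, to 1 with either TPM setting, and to 1 to 7 with 1 library left out. The member median of 0.07 became 0.1 with the length trend removed and 0.09 without ALDOA and LDHB, chosen after seeing the data. As shares of CPM rather than TPM, the differences in percentage points were 2.26 for SLC2A3, 2.2 for PFKL, 7.47 for PFKFB4 and 1.46 for PDK1, because CPM is not divided by length.

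Some genes changed sign and were not called in either case. In the main fit LDHB stood at -0.16, PDK4 at 0.13 and ALDOA at -0.12 (SE 0.217, 0.196 and 0.189). The others that changed sign were nearer 0. PFKFB2 went to 0.01 with upper quartile scaling or limma-voom, 0 with the replicate block and 0.02 with either TPM setting. PDHB went to 0 with upper quartile scaling and 0.01 with either TPM setting, HK1 to -0.01 with library size only and 0 with the length trend removed, and PFKP to 0 with library size only. GAPDH went to 0.02 with the length trend removed, and PKM to 0 there and with either TPM setting. With 1 library left out the ranges were -0.02 to 0.02 for HK1, -0.02 to 0.03 for PFKP, -0.11 to 0.05 for PFKFB2, -0.32 to 0.05 for ALDOA, -0.03 to 0.11 for TPI1, -0.09 to 0.02 for GAPDH, -0.03 to 0.09 for ENO1, -0.06 to 0.04 for PKM, -0.31 to 0.01 for LDHB, -0.04 to 0.24 for PDK4, -0.06 to 0.06 for PDHB and -0.03 to 0.06 for SLC16A1. PDK1 lost its call with library size only (0.4, adjusted p = 0.0546). Beyond what is stated above, the causes were not tested.

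Same-numbered libraries did not deviate together (correlations of -0.06, -0.01 and -0.01), so the numbers were not taken as pairs. With the replicate number as a block 262 genes and 4 members were called, PDK3 being the fourth (0.51, adjusted p = 0.0178), and ARRDC4 was called too.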
